A study of Mus musculus with 3 samples.

Results

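The 9 mouse genes of retinoid binding and metabolism described here (Crabp1, Crabp2, Rbp4, Aldh1a1, Aldh1a2, Aldh1a3, Cyp26a1, Cyp26b1 and Stra6) were found by symbol, a rule that uses no measured value, as every gene probe whose gene name on the array equals the symbol. The list of symbols itself was chosen with earlier results of these data known, so the choice was not blind to them. The genes are 9 of 27670 gene names. They had 10 probes among 41174 gene probes on the array, 1 probe for each gene and a further one for Aldh1a3.

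Retinol, or vitamin A, travels in the blood bound to retinol binding protein 4 and is turned inside cells into retinoic acid, a ligand of nuclear receptors that drives differentiation of embryonic stem (ES) cells. Stra6 is the membrane receptor that takes retinol up from Rbp4, enzymes of the Aldh1a family make retinoic acid from retinal, the cellular retinoic acid binding proteins Crabp1 and Crabp2 hold it in the cytoplasm, and the cytochromes Cyp26a1 and Cyp26b1 break it down.

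RNA of mouse ES cells, labelled with Cy3, was hybridised together with RNA of mouse embryonic fibroblasts (MEF), labelled with Cy5, on 3 arrays, each with 1 of 3 ES cell replicates. The ES cells were untreated and grew in knockout medium with defined fetal bovine serum, 2-mercaptoethanol and leukemia inhibitory factor (LIF), which helps to keep ES cells undifferentiated. The MEF were also untreated and grew in DMEM with heat-inactivated fetal bovine serum and non-essential amino acids. The sample labels name the Cy5 RNA as MEF, while the study's design text has "mix2" for the RNA labelled with Cy5 and does not say what that is. The sample labels were followed, and if the Cy5 RNA held other cells too, every ratio would be against that mixture. The labels give no strain, line or age for either cell type and do not say whether the ES cell replicates were separate cultures, so p-values cover only how these arrays vary, which could be technical variation.

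Cy3 always marked ES cells and Cy5 MEF, and without a dye swap any dye bias of a probe remains in its ratio. As MEF RNA is taken as a single control, no test includes the spread between MEF samples, and the number of arrays limits the precision. The share of gene spots well above background was 68.6% to 70.6% for ES cells and 68.2% to 74.0% for MEF. The log2 ratios of any 2 arrays correlated at 0.998 across 29458 probes, which are not independent replicates. All 7 ES cell markers examined were higher in ES cells, among them Pou5f1 (log2 ratio 3.75), Nanog (4.02) and Sox2 (5.79), and all 7 fibroblast markers were lower, among them Col1a1 (-8.10), Col1a2 (-7.36) and Thy1 (-2.52). All 7 macrophage markers were lower in ES cells as well, with a summed normalized intensity of 10533 to 11013 in ES cells and 499987 to 536601 in MEF. The Lyz2 probe alone had 323200 to 351800 in MEF, so the sum mainly reads that probe and does not measure macrophage content. The macrophage marker values stand beside every retinoid gene that was lower in ES cells, and the part of macrophages in these differences was not tested. In such cell populations, fewer cells of a type and less RNA per cell cannot be told apart.

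The first 30 of the 60 bases of each probe are printed to show which transcript stretch each value below reads, with no base marked by capitals.
Stra6: cagcctcaggccggcagaagaagaagaagg
Rbp4: tactgaaggtccctgaaagatgtttgaggc
Crabp1: gtttacccacgtgggagaatgagaacaaga
Crabp2: agcaaagtatctttagcctaaaggactcag
Aldh1a1: gactagttgtgacttaagctctgtccctca
Aldh1a2: aaccagctagctcccttcaacccacagtat
Aldh1a3, tested probe: ggggattttgatcttaagttcagattgtgt
Aldh1a3, further probe: actatttgcttctctttttctaaacctatt
Cyp26a1: atcttcactaacaaggaggaatttaatccc
Cyp26b1: gttcgtgtgtctcgttgtggtagcattaat

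By the probe coordinates of the files (mouse build mm7), 3 of the 9 genes lay on chromosome 9 (Crabp1, Aldh1a2 and Stra6), 3 on chromosome 19 (Aldh1a1, Cyp26a1 and Rbp4) and 1 each on chromosomes 3 (Crabp2), 6 (Cyp26b1) and 7 (Aldh1a3). The probes of Cyp26a1 and Rbp4 lay 416 kb apart. Whether a probe lies in coding or untranslated sequence was not determined, since no mm7 gene annotation was used. The Stra6 probe of 60 bases is placed over 612 bases of the genome, on chr9:58180793-58181404.

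Of the 5 enzymes that make or break down retinoic acid 3 were called lower in ES cells, as was 1 of its 2 binding proteins, and no member was called higher. Calls required both an adjusted p under 0.05 (limma, Benjamini-Hochberg over 29500 tested probes) and a difference of at least 2-fold. By this rule 4 of the 9 genes were lower in ES cells, namely Aldh1a1, Crabp2, Cyp26b1 and Aldh1a2, against 22.5% of 19494 tested genes called lower. Over all genes 20.4% were called higher, and 42.8% were called in either direction. Counted by probe, 21.1% of tested probes were called lower, 19.9% higher and 41.0% in either direction. The median log2 ratio of the 9 genes was -0.80, which is the value of the dim and uncalled gene Aldh1a3, beside -0.05 for all tested genes. Without the fold minimum all 9 genes had an adjusted p under 0.05, as did 95.4% of all tested genes, so that the fold minimum sets the calls. All 9 genes passed the filter on dim probes, which asks for a signal well above background in ES cells or in MEF on every array, while the further Aldh1a3 probe did not.

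**Figure D1:**
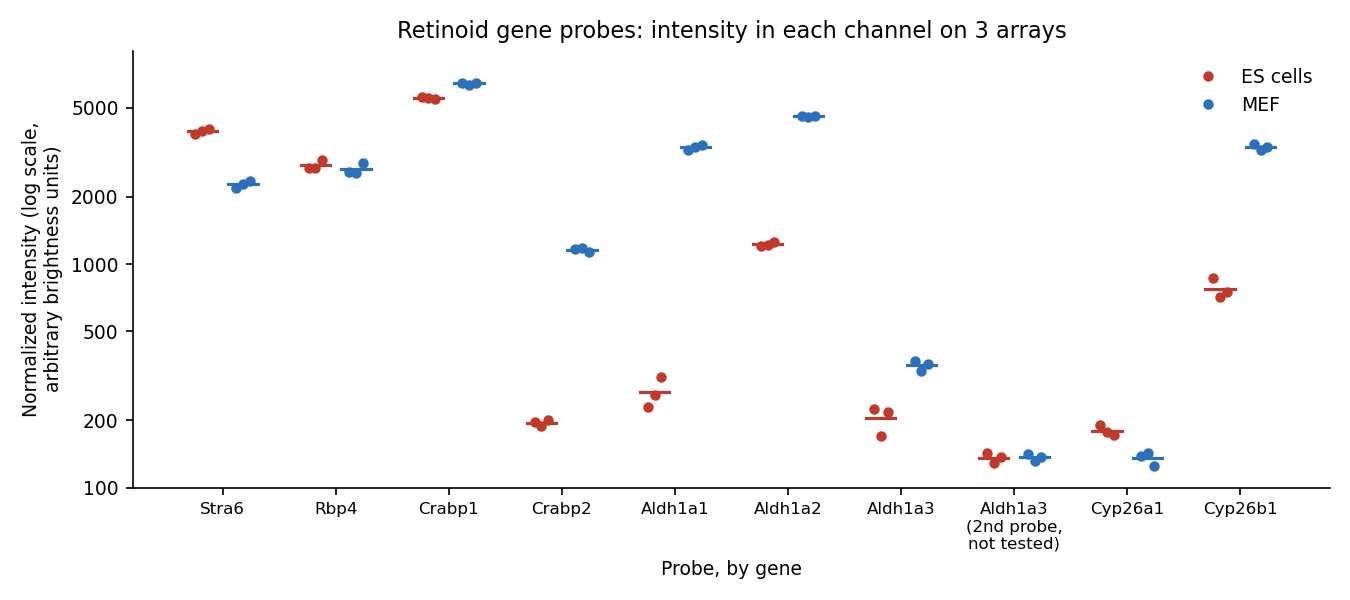
Normalized intensity (log axis, arbitrary brightness units) of each of the 10 retinoid gene probes in ES cells (red, left of each pair) and MEF (blue, right), with 1 point for each of 3 arrays and a bar at the mean. The 2 channels lie apart by more than 2-fold for Crabp2, Aldh1a1, Aldh1a2 and Cyp26b1, each with the ES cells below MEF; heights of different probes are not comparable.

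Retinol supply was represented by Rbp4 and Stra6. Stra6, the retinol receptor, whose transcript was first described as induced by retinoic acid in mouse cells, had a normalized intensity of 3812, 3944 and 4007 in ES cells and of 2197, 2270 and 2362 in MEF. Every ES cell value lay above every MEF value. The log2 ratio was 0.79 ± 0.019 (SD, n = 3 arrays), a 1.72-fold difference (adjusted p = 2.33e-06, limma) that stayed under the 2-fold minimum, and 74.9% of tested genes had a lower ratio. Centring each array on its median in place of loess gave a log2 ratio of 1.04, past the minimum.

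Rbp4, the carrier of retinol in plasma, with its probe on chr19:37817322-37817381, had normalized intensities of 2696, 2688 and 2907 in ES cells and of 2586, 2566 and 2822 in MEF. The ranges of the 2 cell types overlapped across arrays, while on each array the ES cell value was the higher one. The log2 ratio was 0.057 ± 0.013 (SD, n = 3 arrays; adjusted p = 0.0141, limma), a 1.04-fold difference, and 54.0% of tested genes had a lower ratio. Rbp4 is also made by hepatocytes and visceral endoderm, and of 9 marker genes of these cells Ttr, Afp, Apoa1 and Alb were not well above background in ES cells on any array, and Ttr, Apoa1 and Alb were not in MEF. Of the 5 markers tested, 2 were called higher in ES cells and none lower, and the summed normalized intensity of the tested ones was 2537 to 2691 in ES cells and 1230 to 1343 in MEF.

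Of the binding proteins of retinoic acid, 1 of 2 was called. Crabp2, which carries retinoic acid to its nuclear receptor, was called lower in ES cells, with normalized intensities of 197.1, 189.2 and 199.7 in ES cells and of 1162, 1183 and 1134 in MEF. The groups did not overlap. On the log2 scale the ratio was -2.57 ± 0.070 (SD, n = 3 arrays), thus 5.94-fold lower in ES cells (adjusted p = 7.57e-07, limma), and 5.8% of tested genes had a lower ratio. The Crabp2 probe lay on chr3:88062561-88062620.

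Crabp1, the other cytoplasmic binding protein, had normalized intensities of 5588, 5551 and 5477 in ES cells and of 6460, 6353 and 6456 in MEF. Every ES cell value lay below every MEF value, but by little. The log2 ratio of -0.21 ± 0.022 (SD, n = 3 arrays; adjusted p = 2.05e-04, limma) was a 1.16-fold difference, not called, and median centring turned its sign to 0.06. The Crabp1 probe lay on chr9:54797711-54797770.

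**Figure D2:**
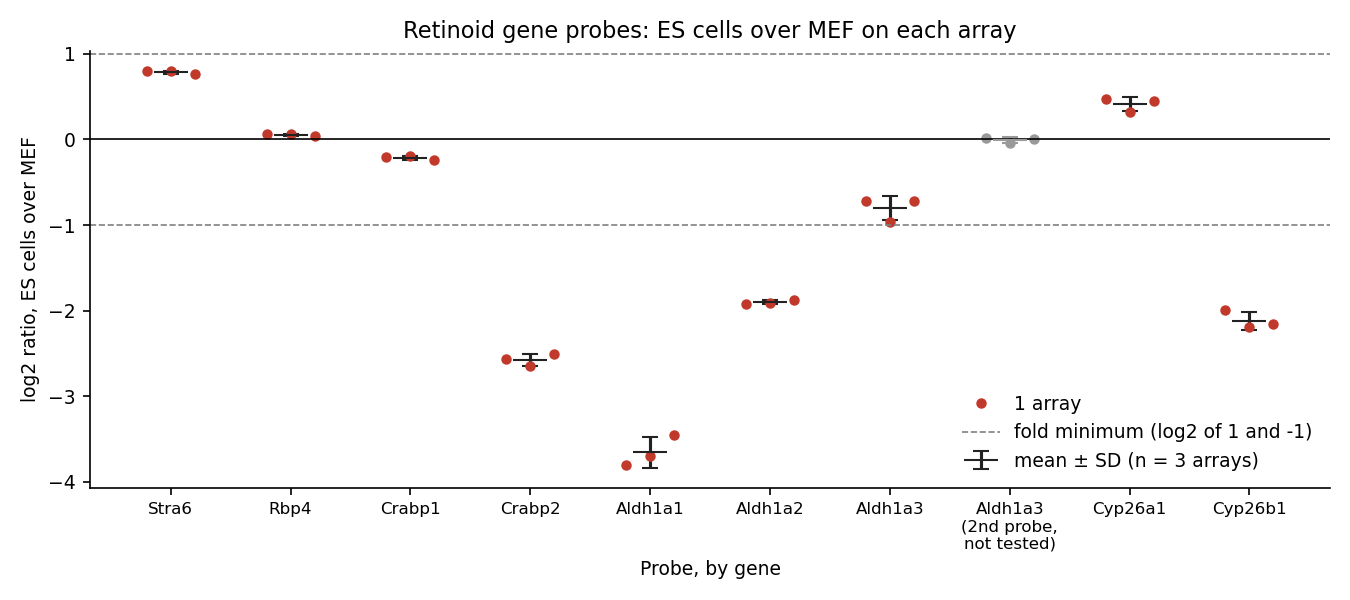
Log2 ratio of ES cells over MEF for each retinoid gene probe, with 1 red point for each of 3 arrays (grey for the probe that was not tested) and the mean with SD; dashed lines mark the 2-fold minimum. Aldh1a1 has the lowest ratio at -3.65, 4 probes lie below -1 on all 3 arrays, and no probe lies above 1.

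The Aldh1a enzymes, which carry out the last step of retinoic acid synthesis, were called lower in ES cells for 2 of 3 genes. Aldh1a1 had normalized intensities of 230.2, 258.1 and 313.2 in ES cells and of 3222, 3339 and 3425 in MEF. All ES cell values lay below all MEF values. The log2 ratio was -3.65 ± 0.18 (SD, n = 3 arrays), thus 12.6-fold lower in ES cells (adjusted p = 3.31e-06, limma), and 1.9% of tested genes had a lower ratio. The probe lay on chr19:20343581-20343640. Mice have a close paralog, Aldh1a7, whose probe lay 50 kb away, and RNA of one gene may also bind the probe of the other. Aldh1a7, named here after its values were seen, had a log2 ratio of -2.05 ± 0.081 (SD, n = 3 arrays; adjusted p = 1.94e-06, limma).

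Aldh1a2, the main source of retinoic acid in the early mouse embryo, with its probe on chr9:71330506-71330565, had normalized intensities of 1205, 1218 and 1252 in ES cells and of 4573, 4562 and 4594 in MEF. The 2 cell types did not overlap, and the spread within each was small. Its log2 ratio was -1.90 ± 0.025 (SD, n = 3 arrays), thus 3.74-fold lower in ES cells (adjusted p = 3.30e-07, limma), and 10.6% of tested genes had a lower ratio. Aldh1a2 is also known from mesothelium. Of 5 mesothelial markers 1 was called higher and 2 lower in ES cells, with a summed normalized intensity of 2084 to 2207 in ES cells and of 3028 to 3109 in MEF, and their part in the Aldh1a2 difference was not tested. Both called lower, Gpm6a and Upk3b, passed the filter only through MEF.

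Aldh1a3 was dim in both cell types. Its brighter probe, on chr7:62248866-62248925, had normalized intensities of 224.6, 170.7 and 217.7 in ES cells and of 368.7, 331.9 and 358.6 in MEF. All ES cell values lay below all MEF values. Its log2 ratio was -0.80 ± 0.14 (SD, n = 3 arrays; adjusted p = 2.44e-04, limma), not called at 1.74-fold, whereas the scanner software's processed signals gave -1.18, past the minimum.

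The further Aldh1a3 probe, on chr7:62266988-62267047, lay 18.1 kb away and was well above background on 2 of 3 arrays in each channel. Its normalized intensities were 143.0, 128.3 and 137.4 in ES cells and 141.3, 131.8 and 136.9 in MEF, so that the groups overlapped and the log2 ratio was -0.006 ± 0.029 (SD, n = 3 arrays), not tested. The difference at Aldh1a3 thus rests on 1 of its 2 probes.

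The Cyp26 enzymes, which remove retinoic acid by oxidation, had 1 of 2 members called. Cyp26b1 had normalized intensities of 865.1, 711.6 and 745.9 in ES cells and of 3450, 3253 and 3331 in MEF. The groups did not overlap. On the log2 scale the ratio was -2.12 ± 0.11 (SD, n = 3 arrays), thus 4.33-fold lower in ES cells (adjusted p = 3.57e-06, limma), with 8.8% of tested genes at a lower ratio. The probe lay on chr6:84601274-84601333.

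Cyp26a1 was close to background. Its normalized intensities were 190.8, 177.9 and 171.0 in ES cells and 138.0, 142.8 and 124.7 in MEF. Every ES cell value lay above every MEF value, and the probe, on chr19:37401759-37401818, was well above background on all 3 arrays in ES cells and on 2 of 3 in MEF. The log2 ratio of 0.41 ± 0.084 (SD, n = 3 arrays; adjusted p = 4.72e-04, limma) was a 1.33-fold difference, not called. The scanner software's processed signals gave 1.07, past the 2-fold minimum.

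**Figure D3:**
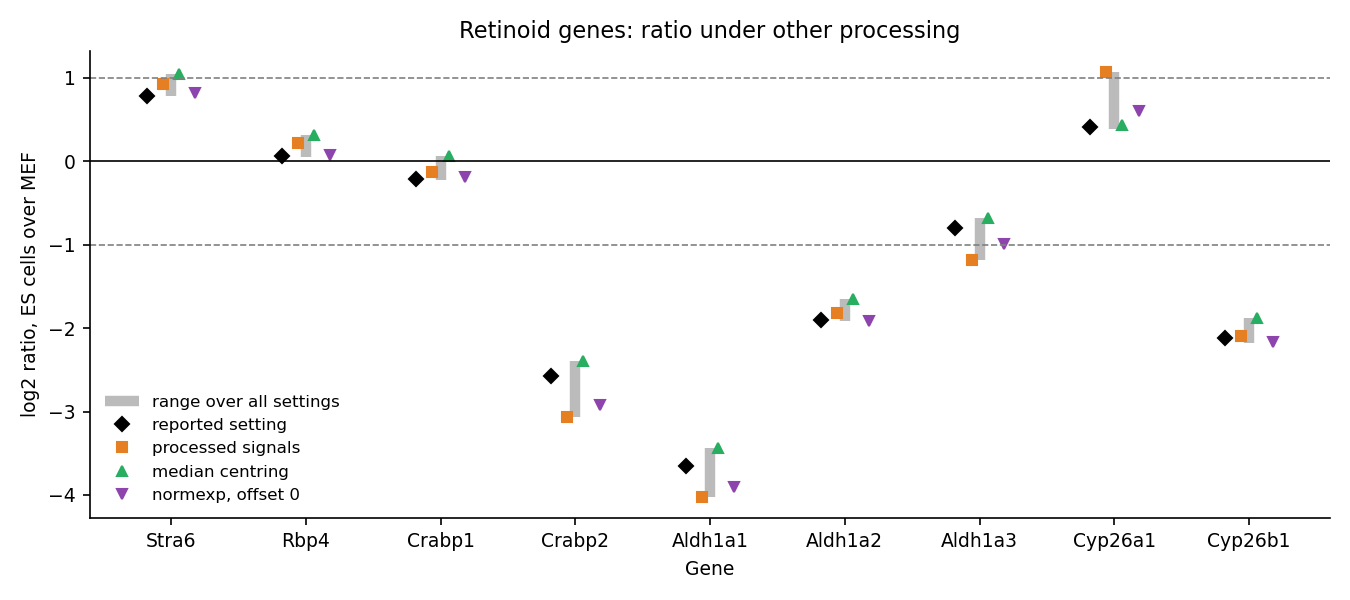
Log2 ratio of ES cells over MEF of each retinoid gene under the reported processing (black diamonds) and 3 alternatives (coloured markers), with a grey bar from the lowest to the highest value over all settings tried; dashed lines mark the 2-fold minimum. Cyp26a1 spans 0.39 to 1.07 and Crabp2 -3.07 to -2.40, and the 4 genes called lower stay below -1.

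Promoter sequence was examined for the element through which retinoic acid receptors are known to act, a direct repeat of a 6-base half-site with 5 bases between the copies. RefSeq promoter windows of 300 bases (GRCm38.p6, 250 before and 50 after a transcript start) matched 7 of the 9 genes, with 12 windows; Crabp2 and Aldh1a3 had no entry. The half-sites searched were AGGTCA or AGTTCA or GGTTCA or GGGTCA, in any pairing and on both strands, with any 5 bases between them. Such a repeat was held by 32 of 32851 windows, or 0.0974%. Among the members it was found in 1 window, that of Cyp26a1, 15 bases before the start. Among 51 windows of 37 other retinoid pathway genes, it was found in that of Rarb alone. Both are printed from 250 bases before the start, with the repeat in capitals, because of the matched genes they alone hold it. A match describes the letters of the window and nothing about a factor on it.
Cyp26a1, chr19:37697558-37697807, plus strand: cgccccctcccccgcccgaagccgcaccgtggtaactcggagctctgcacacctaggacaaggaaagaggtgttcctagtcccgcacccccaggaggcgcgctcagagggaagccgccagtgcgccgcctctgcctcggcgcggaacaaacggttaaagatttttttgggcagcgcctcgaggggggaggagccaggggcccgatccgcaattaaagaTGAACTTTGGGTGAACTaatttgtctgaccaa
Rarb, chr14:16575477-16575726, minus strand: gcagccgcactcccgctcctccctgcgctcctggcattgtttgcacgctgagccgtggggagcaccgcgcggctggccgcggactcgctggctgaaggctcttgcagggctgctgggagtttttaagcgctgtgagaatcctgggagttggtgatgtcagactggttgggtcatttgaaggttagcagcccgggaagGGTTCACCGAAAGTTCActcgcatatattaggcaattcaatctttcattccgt

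Set among all 19494 tested genes, the members lay from the lower tail to the upper middle of the ratios. Aldh1a1, Crabp2, Cyp26b1 and Aldh1a2 had 1.9%, 5.8%, 8.8% and 10.6% of genes below them, Aldh1a3 26.6%, Crabp1 43.6%, Rbp4 54.0%, Cyp26a1 64.9% and Stra6 74.9%. In that order, which the same ratios set, single-array ratios overlapped for 0 of 8 pairs of neighbours. This count describes only how these arrays vary. The closest neighbours were Cyp26b1 and Aldh1a2.

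**Figure D4:**
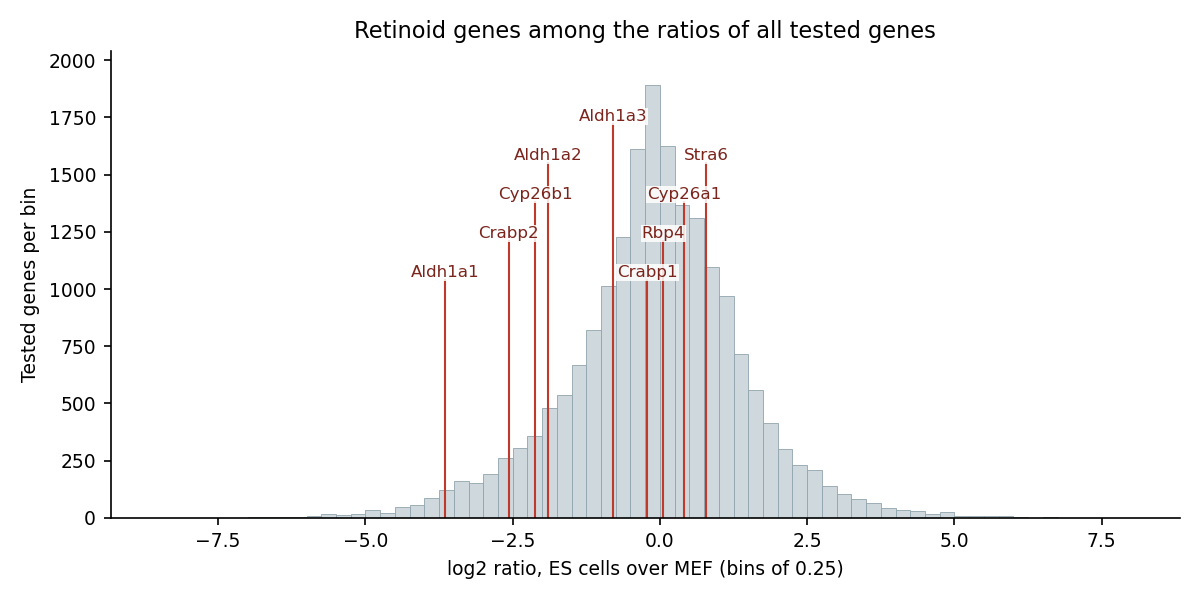
Number of tested genes (vertical axis) by log2 ratio of ES cells over MEF (horizontal axis, bins of 0.25), with a red line at the ratio of each of the 9 retinoid genes; the heights of the red lines carry no value. Aldh1a1, Crabp2, Cyp26b1 and Aldh1a2 lie to the left of the peak, and Stra6 is rightmost at 0.79.

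Other genes of the retinoid pathway were read from lists of receptors, retinol and retinal handling, receptor cofactors and response genes. Of 51 listed genes 42 were tested, and 18 were called lower in ES cells and 5 higher, or 42.9% and 11.9%, beside 22.5% and 20.4% of all tested genes. Their median log2 ratio was -0.62. The genes called lower include Dhrs9 and Fabp5, which passed the filter on dim probes only through MEF, where they are brighter. Among probes above background in both channels, which leaves out Dhrs9 and Fabp5, 21 genes were called in place of 23. Over the mean of all probes of a gene 20 were.

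Among 6 retinoic acid and retinoid X receptors, 2 were called lower in ES cells and none higher (median log2 ratio -0.29). Rarb, a receptor gene that retinoic acid itself induces, had normalized intensities of 194.1, 171.1 and 183.3 in ES cells and of 2052, 2023 and 2085 in MEF. The log2 ratio was -3.49 ± 0.082 (SD, n = 3 arrays), thus 11.2-fold lower in ES cells (adjusted p = 5.00e-07, limma), by the 1 of its 2 probes that was tested. Processed signals gave -4.15. Rxra, the partner of retinoic acid receptors on DNA, stood at -1.99 ± 0.013 (SD, n = 3 arrays; adjusted p = 2.40e-07, limma) by its brighter probe but at 1.46 by the other, so its direction depends on the probe, and it was not called over the mean of both, at -0.26. Rara, Rarg, Rxrb and Rxrg lay between -0.33 and 0.44 and were not called.

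Of 17 tested genes listed under retinol and retinal handling, 8 were called lower and 2 higher (median log2 ratio -0.81). The list also holds Fabp5, a fatty acid binding protein gene. Of the 8, Dhrs9 and Fabp5 passed the filter on dim probes only through MEF, where they are brighter, and were well above background on 1 of 3 arrays in ES cells. Rdh14, also among the 8, stood at -1.04 by its brighter probe but at 0.58 by the other. Its direction thus depends on the probe. Dhrs3, which reduces retinal back to retinol, was lowest at -4.70 ± 0.010 (SD, n = 3 arrays; adjusted p = 1.87e-07, limma), 25.9-fold lower in ES cells. Its normalized intensities were 1761, 1849 and 1909 in ES cells and 45520, 48330 and 49210 in MEF.

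In the other direction, Rbp7, a cellular retinol binding protein, stood at 3.37 ± 0.026 (SD, n = 3 arrays; adjusted p = 1.88e-07, limma), with 1566, 1567 and 1583 in ES cells and 152.4, 148.6 and 155.4 in MEF. Its other probe gave 1.55, the mean of both 2.46 and processed signals 4.57. Adh5, a widely expressed alcohol dehydrogenase, stood at 1.80 ± 0.023 (SD, n = 3 arrays; adjusted p = 3.46e-07, limma). Lrat, Adh7, Bco1 and Ttr were not well above background in either cell type on any array, and Bco2 was not in ES cells. Cyp26c1, the third Cyp26 enzyme, was not matched to a probe.

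Among 9 receptor cofactors 2 were called lower and 1 higher (median log2 ratio -0.19). Nrip1, a ligand-dependent corepressor, stood at -1.09 ± 0.018, while the coactivator gene Ncoa3 stood at 1.55 ± 0.014 (SD, n = 3 arrays each). Nrip1 lost its call when all its probes were averaged, at -0.90. The 3 tested probes of Ncoa3 ranged from 0.44 to 1.55, and their mean of 1.03 was just past the fold minimum.

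Of 10 tested genes known to respond to retinoic acid, 6 were called lower and 2 higher (median log2 ratio -1.68). The homeobox genes Meis2, at -3.99 ± 0.034, and Meis1, at -3.62 ± 0.024, had the lowest ratios by their brightest probes, 15.9-fold and 12.3-fold lower in ES cells (SD, n = 3 arrays; adjusted p = 1.87e-07 for each, limma). The other probe of Meis1 gave -2.18, the mean of both -2.90 and processed signals -4.06. Gbx2, a homeobox gene of the early embryo that ES cells express, was highest by its brightest probe at 3.64 ± 0.022, though its other probe gave 1.24 and the mean of both 2.44, and Stra8, the gatekeeper of meiosis, stood at 2.67 ± 0.056 (SD, n = 3 arrays each). Stra8 had normalized intensities of 4457, 4182 and 4220 in ES cells and of 699.9, 632.5 and 689.6 in MEF. Hoxb1 and Cdx1 were not well above background in either cell type on any array.

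**Figure D5:**
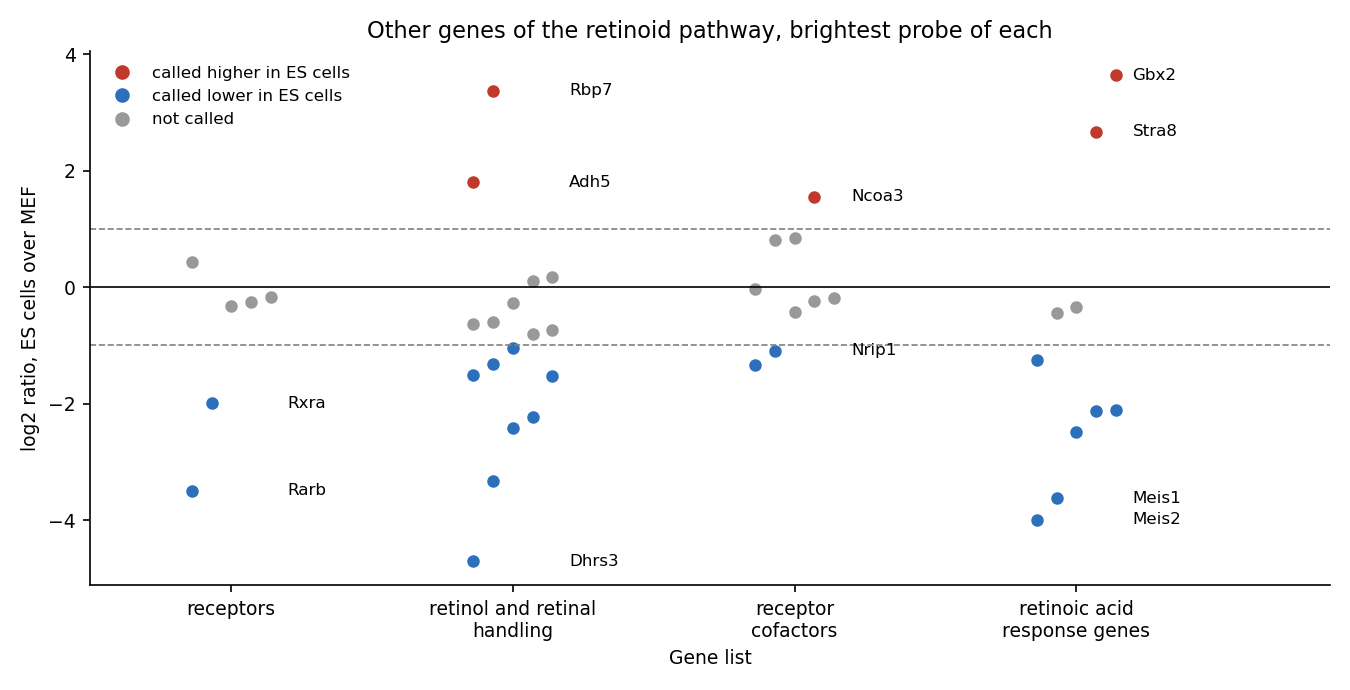
Log2 ratio of ES cells over MEF (vertical axis) of 42 other retinoid pathway genes by list (horizontal axis), 1 point for the brightest tested probe of each gene, coloured by call; dashed lines mark the 2-fold minimum. Dhrs3 is lowest at -4.70, Gbx2 highest at 3.64, and 18 points are called lower against 5 called higher. Of the 18, Dhrs9 and Fabp5 passed the filter on dim probes only through MEF.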

How the data were processed

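The authors' scans were quantified by Agilent Feature Extraction 9.5.3.1, per the file headers, which gives deposited intensities as a spot's mean and its local background's median, not yet subtracted. Its processed intensities, also deposited, have background removed and dyes balanced, and the deposited log10 ratio made from them is MEF over ES cells. The authors' deposited log2 table correlated with its sign-turned form at 0.998 to 1.00 across probes and came within 0.01 for 85.4% to 87.8% of them, so its direction is ES cells over MEF. Its columns have medians of 0.213, 0.0859 and -0.143, so they are not centred; what was done to probes outside that tolerance is unknown.

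Signals were corrected with normexp (offset 50, which shrinks ratios of dim genes) and loess in limma 3.58.1 under R 4.3.3, with control spots at weight 0 and outlier spots left out, and turned to ES cells over MEF. Probes well above background in either channel on all 3 arrays were tested against 0 (lmFit, eBayes), and the brightest probe stood for its gene. Probes were named by accession (22951), symbol (6659) or synonym (3109) through RefSeq (GRCm38.p6), and 8455 kept the file's name. All arrays lay on 1 slide and 1 scan, so neither could be tested as a batch. Alternatives were processed signals, the authors' value table, other background and scaling settings, other filters and fold rules, the mean of all probes, and each replicate left out. The procedure was tested on simulated data, with 50 probes changed at each log2 ratio of -3, -1.5, 1.5 and 3. It called 50, 48, 48 and 50 of them with the right sign, and 0 unchanged probes. The simulated noise was small beside the 2-fold minimum and held no dye bias. An unchanged probe could thus hardly be called, and the 0 does not measure false calls. With so few probes changed, as many up as down, the simulation does not test loess where 41.0% of probes are called. The members, lists and tests were chosen with earlier results of these data known. Aldh1a7 was named after its values were seen. All members were named, and of each other list the 2 highest and 2 lowest called genes, of which some are not reported here; of the marker lists, a fixed few. Endothelial markers had 2 of 3 tested genes higher and 1 lower, and 4 keratinocyte markers none called.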

Additional observations from a re-analysis of the deposited data

How the results depend on the processing

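Aldh1a1 (log2 ratio -4.02 to -3.44), Crabp2 (-3.07 to -2.40), Cyp26b1 (-2.18 to -1.88) and Aldh1a2 (-1.92 to -1.65) stayed called lower under all 15 alternatives, which included leaving out each replicate. The alternatives are not independent checks. Scaling between arrays and the other filters and fold rules reuse the same ratios. Each of these genes has 1 probe, so the mean of all probes is that ratio too. Those settings could not move the ratios and are no check of their size. Keeping outlier spots left them as reported. Processed signals and the authors' value table gave the same ratios as each other for these genes. The number of retinoid genes called was 4 in all but 4 alternatives. It was 6 with processed signals and with the authors' value table, where Aldh1a3 (-1.18) and Cyp26a1 (1.07) passed the fold minimum, and 5 with median centring, where Stra6 did (1.04). Without the fold minimum, 9 retinoid genes, 9 retinoid probes, 41 other pathway genes and 28140 of all tested probes were called, beside 4, 4, 23 and 12095. Crabp1 turned to 0.06 with median centring, a setting that moved the median of all tested probes to 0.149, beside -0.023. With median centring limma gave all probes 1 common variance (infinite prior degrees of freedom, beside 1.92 as reported), so its p-values are too small to use and its calls rest on the fold minimum alone. Leaving out 1 replicate gave 11973 to 12171 called probes, and 4 retinoid and 23 other pathway genes each time. Rxra (-0.26) and Nrip1 (-0.90) were not called over all their probes, nor Nrip1 with median centring (-0.83). Cyp26a1 gave no value among probes above background in both channels. The cause of these shifts was not tested. Slide as a block was not run, as there was 1 slide. Each ratio is taken within an array, so the test is paired by array, and MEF carry no replicate numbers for a further block. Signal near background limits Cyp26a1 and Aldh1a3. It also limits the size of the ratios of Crabp2, Aldh1a1, Rarb (-4.15 with processed signals), Meis1 (-4.06) and Rbp7 (4.57).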
